A study of Mus musculus with 8 samples.

Results

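The genes of nonsense-mediated decay were described here in mouse embryonic stem cells built for the acute removal of METTL3, the methyltransferase behind most N6-methyladenosine (m6A) in mRNA. The gene rows named Upf1, Upf2, Upf3a, Upf3b, Smg1, Smg5, Smg6, Smg8 and Smg9 were taken from the deposited table by name, 9 of 17597 genes, and all 9 were present. The cells were XX embryonic stem cells of a Cast x 129S background, grown on mitotically inactive mouse fibroblast feeders with LIF. Their METTL3 carried the FKBP12 F36V tag, a handle through which dTAG-13, a small molecule, sends the fusion protein to the proteasome, and the promoter of endogenous Xist had been exchanged on 1 allele for a TetOn promoter that answers to doxycycline. The labels place that promoter on the 129S allele, whereas the study's text describes the parental line as inducible from the castaneus X chromosome. Total RNA came from 8 libraries, 4 of cells given dTAG-13 for 26 hours and 4 of cells without dTAG-13. Each group held 2 libraries each of clones C3 and H5, no library received doxycycline, and both groups carried the tag and the altered Xist promoter. C3 and H5 are single engineered clones, so other genetic backgrounds were not sampled. The labels name total RNA as the molecule while their extraction text describes chromatin RNA; the study's methods, followed here, report direct lysis for total RNA.

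Per the series description, these libraries were made to find genes that respond directly to METTL3 loss, within a study of m6A in X inactivation. The values used here were the mean counts of the deposited table, each the authors' average of size-factor-scaled read counts across the libraries. A mean count mixes treated and untreated cells, so the values below describe how strongly each gene was represented across both groups and carry no difference between dTAG-13 and untreated cells. The fold changes and p-values of the table are the results of the authors' own comparison and were not used. Values per library were not analysed here, so no value below has a spread between replicates, the depth of single libraries is unknown, and no statistical test was made.

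Nonsense-mediated decay removes mRNAs whose translation ends too early. UPF1, an RNA helicase, is recruited when a ribosome stops at a premature stop codon, and UPF2 together with UPF3A or UPF3B links it to exon junction complexes, protein assemblies left on mRNA upstream of each splice junction. The kinase SMG1, held in a complex with SMG8 and SMG9, then phosphorylates UPF1, and phosphorylated UPF1 recruits SMG6, an endonuclease that cuts the RNA, and SMG5, an adaptor that helps to bring in deadenylation and decapping enzymes. The pathway also limits normal mRNAs with long 3′ untranslated regions (UTRs), among them mRNAs of several of its own factors. Exon junction complexes bear on m6A as well, since they keep the writer away from RNA near splice junctions and thereby confine m6A largely to long internal exons and last exons.

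The mean counts of all genes added up to 14573411, and the 9 decay genes held 0.102% of them. Stem cell identity was checked with 8 markers, all of which lay above the median gene, between the 89.1st (Klf4) and the 99.95th percentile (Dppa5a) of mean count per kb. Of 10 feeder markers 3 lay above the median gene: Sparc, Vim and Fn1, with mean counts of 3052, 2073 and 4941. The summed mean count was 10234 for the feeder list, most of it from these 3 genes, and 56575 for the stem cell list. Which cells the reads of these 3 genes came from was not tested. The fibroblast collagens Col1a1, Col1a2 and Col3a1 had mean counts from 8.38 to 19.8. Thy1 was at 116, Dcn at 7.50, Lum at 1.45 and Postn at 0.768. Part of any mean count below may come from feeder cells, which was not tested.

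All 9 genes were expressed above the median gene. Levels were compared between genes as the mean count per kb of merged exons, which are all annotated exons of a gene laid together (GENCODE vM21, GRCm38). On that scale the 9 genes lay between 91.6 and 485, with a median of 218, against a median of 39.9 and an upper quartile of 175 over 17366 genes with a matched gene model. Of the 9 genes, 6 were above that upper quartile. As percentiles, meaning the percent of genes with a lower level, they ran from 63.4 for Smg9 to 89.5 for Smg5, with a median of 78.5. The group therefore spanned a 5.29-fold range, from moderate to high expression.

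**Figure D1:**
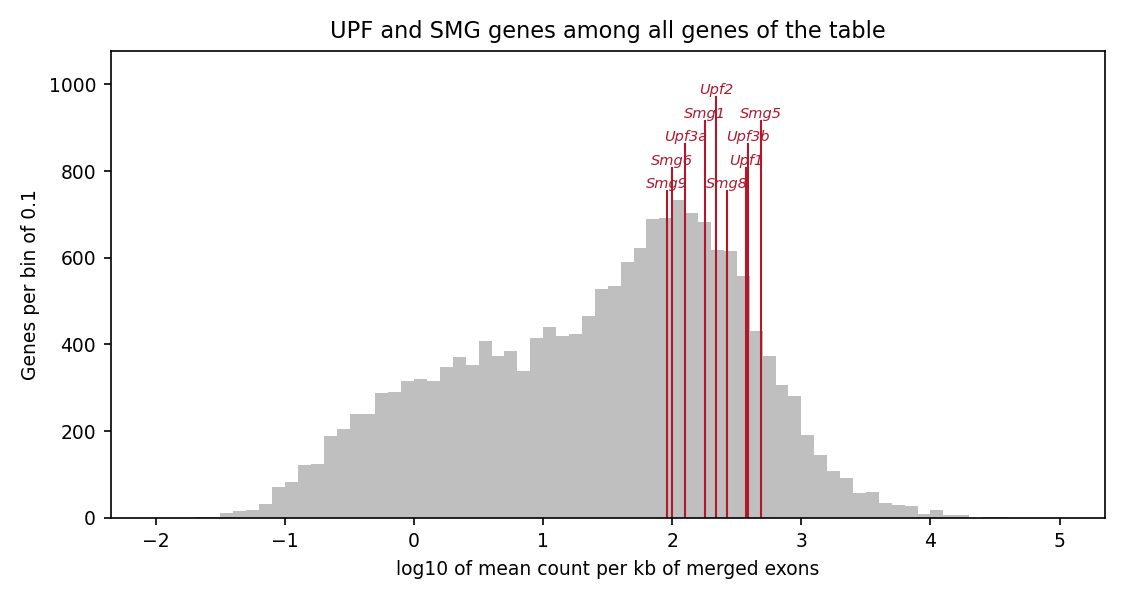
Number of genes (y axis) by log10 of the mean count per kb of merged exons (x axis, bins of 0.1) for 17366 genes, with a red line for each of the 9 UPF and SMG genes. All 9 lines stand to the right of the median gene (39.9 per kb), from Smg9 at 91.6 to Smg5 at 485 per kb.

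Merged exons include retained introns and rare exons. The level was therefore also computed per kb of a coding transcript, the protein-coding transcript with the longest coding sequence. The study names the UCSC genome browser as the source of its gene annotation. The exons that were counted may thus differ from the GENCODE exons behind both lengths, which was not checked. An exon left out of the counting would add length without reads and lower the level per kb. The order of the 9 genes per kb of merged exons was Smg5, Upf3b, Upf1, Smg8, Upf2, Smg1, Upf3a, Smg6 and Smg9. Per kb of coding transcript it was Smg5, Upf3b, Upf1, Upf3a, Smg1, Smg8, Upf2, Smg9 and Smg6. Both orders put Smg5, Upf3b and Upf1 at the top and Smg6 and Smg9 at the bottom. Neighbours were often close: Upf3b exceeded Upf1 by 1.05-fold and Smg6 exceeded Smg9 by 1.09-fold per kb of merged exons, and without replicate values no pair of neighbours can be said to differ.

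Upf1, the helicase at the centre of the pathway (chromosome 8, 70331525 to 70353278, GRCm38, minus strand), had a mean count of 1718. That is 372 per kb on both length scales, since its coding transcript covers all merged exons, and the 86.5th percentile. Upf2, the adaptor that binds UPF1 (chromosome 2, 5951469 to 6056703, plus strand), had a mean count of 1194, or 218 per kb of merged exons and 231 per kb of coding transcript. The level of Upf1 per kb was 1.70-fold that of Upf2 on merged exons and 1.61-fold on coding transcripts, so Upf1 had the higher value on either scale, again without replicate error.

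UPF3A and UPF3B are paralogs that both bridge UPF2 and the exon junction complex, and UPF3B is generally the more active in decay. Upf3b lies on the X chromosome (37091678 to 37110322, minus strand) and Upf3a on chromosome 8 (13785615 to 13799193, plus strand). Upf3b had a mean count of 1555, or 389 per kb of merged exons and 663 per kb of coding transcript. Upf3a had a mean count of 742, or 126 per kb of merged exons and 361 per kb of coding transcript. Upf3b had the higher value on each of the 3 scales, without replicate error, and the size of the difference depended on the length used: 3.07-fold on merged exons, 1.84-fold on coding transcripts and 2.10-fold in mean count. The merged exons of Upf3a add up to 5865 bases while its coding transcript has 2057, the widest such gap among the 9 genes, and this is why its rank moved from the seventh to the fourth.

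Smg1 encodes the kinase, a very large protein of the PI3K-related family (chromosome 7, 118131308 to 118243670, minus strand). It had the highest mean count of the 9 genes, 4310, at the 96.3rd percentile of mean counts. Its merged exons are 23984 bases long, and per kb the level was 180, at the 75.4th percentile, or 277 per kb of coding transcript. Much of the read number of Smg1 therefore goes with the length of its mRNA. Smg8, which holds the kinase in check (chromosome 11, 87077732 to 87086774, minus strand), had a mean count of 849 and 264 per kb on both length scales. Smg9, the other partner of the kinase (chromosome 7, 24399619 to 24422778, plus strand), had the lowest mean count of the 9 genes, 339, or 91.6 per kb of merged exons and 151 per kb of coding transcript. The Smg8 level was 2.88-fold that of Smg9 on merged exons, 1.74-fold on coding transcripts and 2.50-fold in mean count. Among the mRNAs of this complex, Smg9 was the lowest on each of these scales, while Smg1 was below Smg8 on merged exons (0.681-fold) and level with it on coding transcripts (1.05-fold).

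SMG5 and SMG6 recognise phosphorylated UPF1 through related domains and start the destruction of the RNA. Smg5 (chromosome 3, 88336260 to 88362338, plus strand) had a mean count of 3373, or 485 per kb of merged exons and 758 per kb of coding transcript, the highest level of the 9 genes per kb. Smg6, the endonuclease (chromosome 11, 74925823 to 75164448, plus strand), had a mean count of 845, or 99.96 per kb of merged exons and 144 per kb of coding transcript. The adaptor mRNA therefore stood above that of the endonuclease, with Smg5 4.85-fold above Smg6 on merged exons and 5.25-fold on coding transcripts.

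Other genes of the pathway were read from lists chosen by function. Of 5 further decay factors 4 lay above the median gene. Ruvbl1 and Ruvbl2, ATPases that assist SMG1 and many other complexes, had 1797 and 1405 per kb of merged exons. Pnrc2, a decapping adaptor, had 428 and Nbas, a factor that also serves transport between the endoplasmic reticulum and the Golgi, 103 per kb. Dhx34, a helicase that helps activate UPF1, had 37.9 per kb, at the 49.3rd percentile, and was the only one of the 5 below the median gene.

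The exon junction complex and the termination machinery sit immediately upstream of UPF1 in the pathway. Of the core of the junction complex, Magoh had 2461, Eif4a3 1795 and Rbm8a 766 per kb of merged exons. Each exceeded the highest of the 9 UPF and SMG genes, Smg5 at 485, and the same held per kb of coding transcript, where Rbm8a had 945 and Smg5 758. Casc3, the peripheral subunit, had 148 per kb, within the range of the UPF and SMG genes, and Rnps1, an auxiliary factor, had 780. Magohb, the paralog of Magoh, had 79.1 per kb, below Smg9 at 91.6, the lowest of the 9. The release factor genes Etf1 and Gspt1 had 2751 and 718 per kb, while Gspt2, the paralog of Gspt1, had 156, within the range of the UPF and SMG genes. Pabpc1, the poly(A) binding protein whose distance from the stop codon influences decay, had 1664 per kb. The median level was 773 for the 6 genes of the junction complex and 1191 for the 4 genes of termination and poly(A) binding, against 218 for the 9 decay genes and 39.9 for all genes. No test of a difference between them was made.

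**Figure D2:**
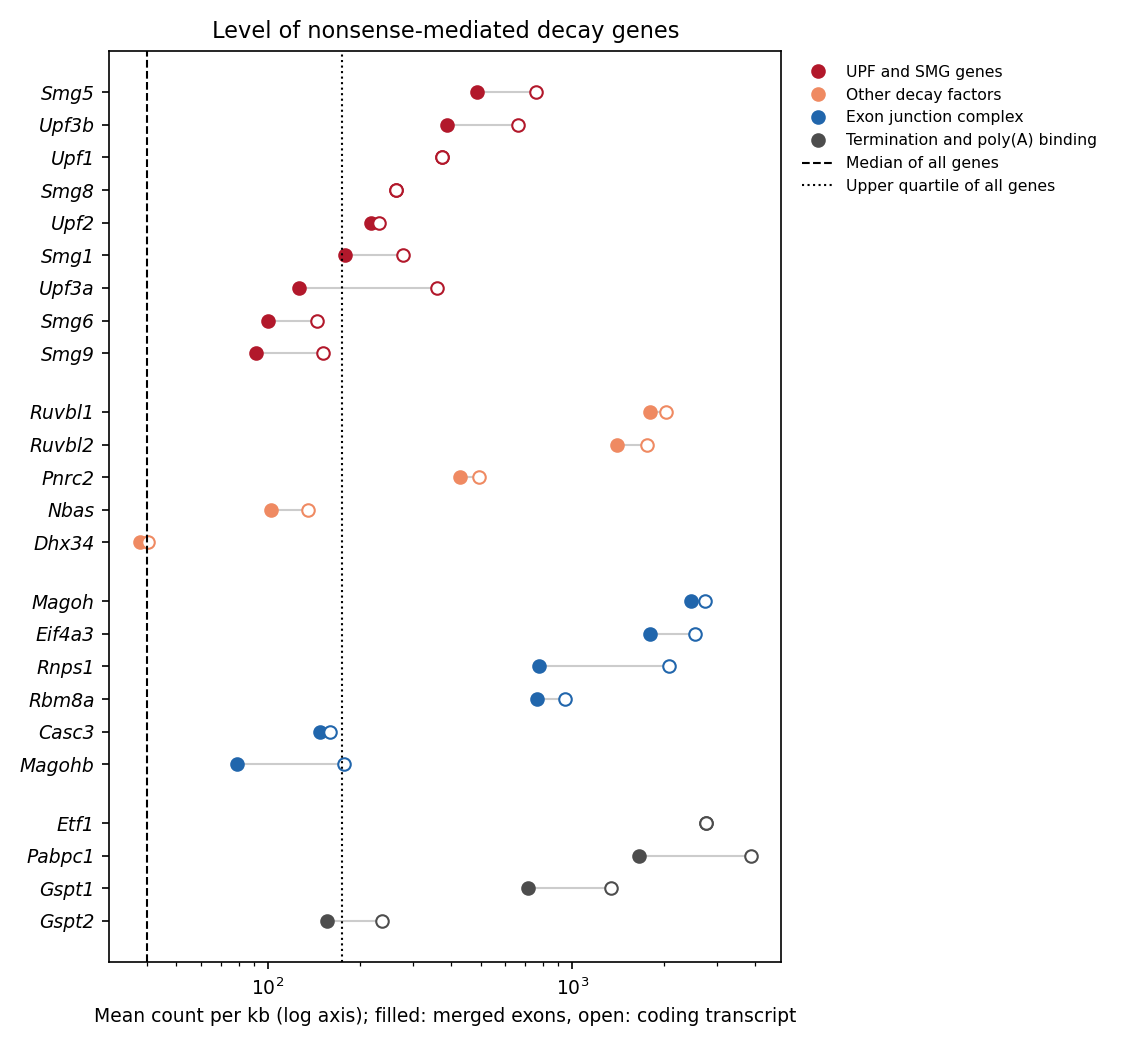
Mean count per kb on a log x axis for the 9 UPF and SMG genes (red), 5 other decay factors (orange), 6 genes of the exon junction complex (blue) and 4 of termination and poly(A) binding (grey); filled points use merged exons, open points the coding transcript, and the lines mark the median (39.9) and upper quartile (175) of all genes on merged exons. On merged exons Ruvbl1, Ruvbl2, Magoh, Eif4a3, Rbm8a, Rnps1, Etf1, Gspt1 and Pabpc1 stand to the right of Smg5 (485), the highest of the 9.

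The mRNAs of the 9 genes differ widely in build. Across 16339 genes with a coding transcript, the median transcript had 2872 bases, 9 exons and a 3′ UTR of 869 bases. The 9 decay genes had a median of 4448 bases, 19 exons and a 3′ UTR of 958 bases. Their coding sequences were long, with 8 of 9 above the median gene. Smg1 was the extreme, with 15557 bases, 63 exons and a 3′ UTR of 4233 bases, at the 94.98th percentile of 3′ UTR length. Smg8 stood at the other end with 4 exons, 1.24 per kb at the 15.2nd percentile of exon density, and a 3′ UTR of 221 bases. Smg9 had the densest exons, 6.24 per kb.

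Long 3′ UTRs, upstream start codons and alternative isoforms are features by which normal mRNAs can become targets of the pathway. The 3′ UTRs of 5 of the 9 genes were longer than that of the median gene. An ATG stood in the 5′ UTR of 4 of the 9 coding transcripts (Upf2, Smg1, Smg5 and Smg9, 1 each), 44.4% against 49.7% of all genes. GENCODE lists a transcript classed as a target of nonsense-mediated decay for 3 of the 9 genes (Smg1, Smg5 and Smg6), 33.3% against 25.3% of all genes with a coding transcript. None of these shares was tested, and with 9 genes a difference of 1 gene moves a share by 11.1 percentage points.

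Sites at which METTL3 could act were counted by sequence. METTL3 prefers an A followed by C within a short consensus of which GGACT is a frequent form, and these 5 letters were searched on the RNA strand of the coding transcripts only. A match is a sequence feature and not a measured m6A site. The 9 transcripts held 41 matches, 14 of them in Smg1, 7 in Smg6, 6 in Smg5, 4 each in Upf2 and Smg8, 3 in Upf1, 2 in Upf3b, 1 in Smg9 and 0 in Upf3a. The median density was 0.853 per kb, against 1.06 for all genes, and 3 of 9 genes (Smg5, Smg8 and Smg6) were above the median gene. The direction depended on the letters searched: with GGAC the median was 4.35 per kb for the 9 genes and 4.28 for all genes. Of all genes, 91.2% held at least 1 match.

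The matches of the decay genes lay mostly within coding sequence. Of the 41, 35 (85.4%) were in coding sequence and 6 (14.6%) in 3′ UTRs, against 57.4% and 34.9% of the 61968 matches in all genes. The coding sequences themselves were long, with a median of 3054 bases against 1383 for all genes, while the 3′ UTRs had 958 against 869. The shares were not adjusted for these lengths, and Smg1 alone held 14 of the 41 matches. Within 400 bases of the end of the stop codon on either side, where m6A is known to be concentrated, 2 of the 9 transcripts (Smg5 and Smg6) held a match, 22.2% against 57.7% of all genes. Among transcripts in which the whole window was present, the numbers were 2 of 8 decay genes and 60.6% of 11435 genes. The nearest match lay just outside this window in Upf3b (406 bases from the end of the stop codon), Smg9 (430) and Upf2 (462). The count therefore depends on the window, and no other window was used. The shares by region and by window are for GGACT only and were not computed for GGAC. These are counts over 9 genes, with no test.

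The match nearest to the stop codon is shown for 5 genes because it marks how differently they are built: Smg5 and Smg6 with a match near the stop codon, Upf2 and Smg1 with the nearest match in the 3′ UTR, and Smg8 with its matches in long exons. Each sequence is 21 bases of the RNA strand from the GENCODE vM21 transcript, written as DNA from 5′ to 3′, with the GGACT in capitals.
Smg5: agatgcctGGACTctctataa
Smg6: gagagtcgGGACTcctgcctg
Upf2: gggctccaGGACTacagtaga
Smg1: tcagaaatGGACTgaaaaaat
Smg8: tgtcatcaGGACTagagctga
The Smg5 sequence (chr3:88360397-88360765, plus strand) is coding, 221 bases before the end of the stop codon, and crosses an exon junction, so its genomic span is longer than its letters. The Smg6 sequence (chr11:75159295-75159315, plus strand) is coding, 295 bases before the end of the stop codon and 82 bases from a junction. The Upf2 sequence (chr2:6055894-6055914, plus strand) lies 462 bases past the stop codon in the 3′ UTR and the Smg1 sequence (chr7:118134989-118135009, minus strand) 542 bases past it. The Smg8 sequence (chr11:87080524-87080544, minus strand) is coding, 566 bases before the end of the stop codon and 368 bases from a junction.

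Distance from splice junctions separated the genes further. Of the 41 matches, 16 (39.02%) lay at least 100 bases from any exon junction, against 56.3% of matches in all genes. All 4 matches of Smg8 did, as did 6 of 14 in Smg1, 3 of 7 in Smg6, 2 of 4 in Upf2 and 1 of 6 in Smg5. None of the 3 matches of Upf1, the 2 of Upf3b or the 1 of Smg9 did. The 9 genes also had denser exons, with a median of 4.27 per kb against 3.45 for all genes. The share of transcript bases that far from a junction was not computed, so the shares of matches were not adjusted for it. These shares, too, were not computed for GGAC. The longest internal exons were exon 2 of Smg6 with 1756 bases (97.8th percentile of genes), exon 3 of Smg8 with 873 bases and exon 3 of Upf2 with 780 bases, and they held 2, 1 and 1 of the matches. The genes with the highest level per kb, Smg5, Upf3b and Upf1, had 1 match away from junctions among them, in the 3′ UTR of Smg5. Of the 3 genes with the lowest level per kb of merged exons, Upf3a and Smg9 had none and Smg6 had 3. That is a description of 9 genes, and how the RNA levels relate to m6A was not tested.

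**Figure D3:**
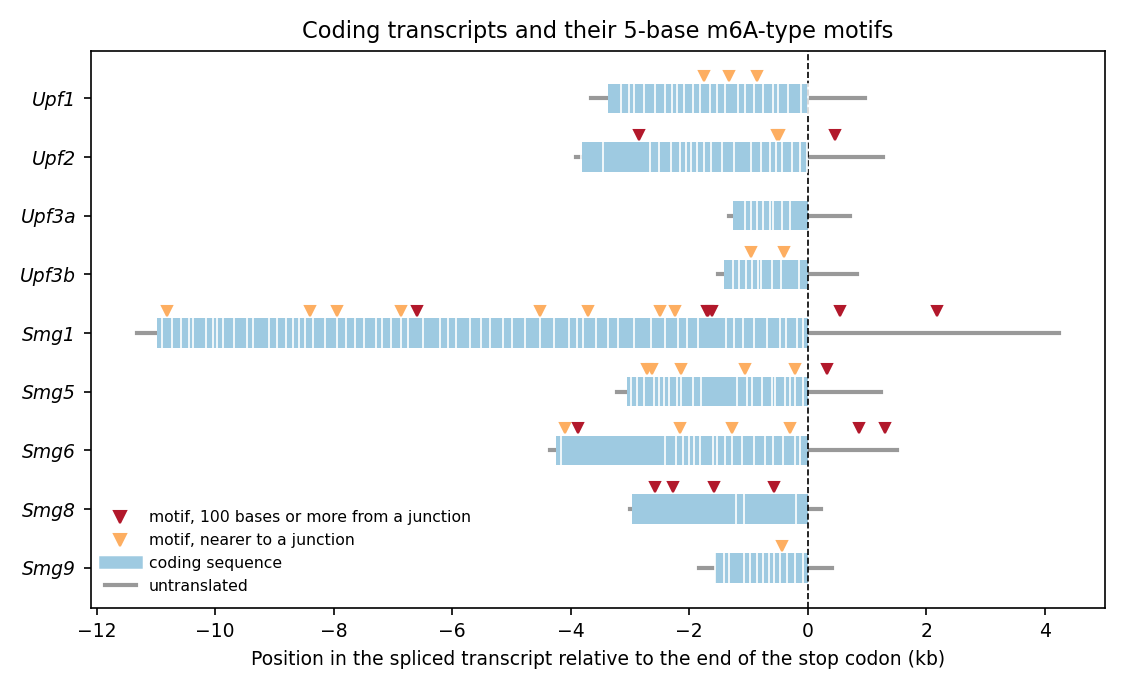
Coding transcripts of the 9 genes drawn to scale, with position in kb from the end of the stop codon on the x axis; blue is coding sequence, grey line untranslated sequence, white ticks exon junctions in coding sequence, and triangles GGACT matches, dark red where at least 100 bases from any junction. Smg1 reaches furthest with 14 matches, all 4 matches of Smg8 are dark red, and Upf3a has none.

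Some counts could hold reads of other genes. Upf1 shares 68 exon bases with Cers1 and 63 with Gdf1 on the opposite strand, 1.47% and 1.36% of its merged exons. Smg6 shares 126 with Srr, 1.49%, and 117 with Gm12333, 1.38%, both on the opposite strand. Gm12333 is an antisense gene without a mean count of its own. The library kit keeps strand, and the deposited table is titled with "reverse", possibly a setting for reverse-stranded reads, but the counting is described only as run with default parameters, which in TEtranscripts ignore strand. Whether strand was used is therefore uncertain, as are these stretches, which are a small share of each gene's exons. The coding transcripts were searched against all annotated transcripts for stretches of at least 81 bases (the read length) with at least 95% identity. Transcripts of genes elsewhere in the genome matched Upf3a only. There, 2 stretches of the 3′ UTR, 156 and 175 bases long, resembled sequence in 18 other genes. Uniquely placed reads were kept by the authors, so such stretches may be undercounted. No stretch of this kind joined Upf3a with Upf3b, and the other 8 genes had no such copy in annotated transcripts outside genes that overlap them. Unannotated sequence was not searched, nor were exons outside the coding transcripts, whose reads can also enter the counts.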

How the data were processed

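Total RNA libraries of METTL3-degron stem cells (4 with dTAG-13, 4 untreated) were sequenced as read pairs. Per the study's methods, the authors removed ribosomal reads with bowtie2, aligned to N-masked mm10 with STAR, kept unique alignments, removed duplicates with Picard and counted genes and transposable elements with TEtranscripts at default parameters. The deposited signal column is the authors' mean over libraries of counts divided by size factors, and it was the 1 column used. The other 5 columns hold the fold change, its standard error, the statistic and both p-values of the authors' own comparison and were not used.

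Levels per kb, percentiles and sequence matches were computed with Python 3.11.15, pandas 2.3.3 and BLAST 2.17.0 and checked on simulated data. Symbols were matched to GENCODE vM21 (GRCm38, the build of mm10): 16660 directly and 706 through older symbols, 98.7% of genes. Genes and lists were named by function, with earlier results of these data known. Alternatives changed the background genes, a minimum mean count of 10, the length and the motif. An item of the planned lists is not reported here. No test was made, because values per library were not analysed here.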

Additional observations from a re-analysis of the deposited data

How the results depend on the processing

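All 9 genes stayed above the median gene under each alternative. The median percentile of the 9 genes was 78.5 as reported, 77.6 among protein-coding genes alone, 72.2 after genes under a mean count of 10 were left out, 74.2 per kb of the coding transcript and 82.4 for the mean count without a length. Single genes ranged from the 52.8th percentile, with that same filter, to the 96.3rd, for the mean count without a length. The ratio of Upf3b to Upf3a moved from 3.07 to 1.84 per kb of the coding transcript and 2.10 in mean count, and that of Smg8 to Smg9 from 2.88 to 1.74 and 2.50. With GGAC in place of GGACT the median density of the 9 genes was 4.35 per kb, above the 4.28 of all genes, so the lower density of the 9 genes depends on the letters searched. In merged exons GGACT stood at 0.751 per kb, against 1.02 for all genes.

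No paired analysis was possible because the table gives a single mean over all libraries for each gene. For the same reason, leaving out libraries and other normalizations were not run. The level per kb of a gene itself moved by up to 2.85-fold between the length scales (Upf3a), so the size of a ratio between genes rests on the length chosen.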

Other observations

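Other paralog pairs linked to the pathway were less even than Upf3b and Upf3a. Magoh, a core subunit of the exon junction complex, stood at 2461 per kb of merged exons and its paralog Magohb at 79.1, a ratio of 31.1 that fell to 15.4 per kb of the coding transcript and 13.9 in mean count. Gspt1, which encodes a release factor, stood at 718 per kb and Gspt2, its paralog, at 156, a ratio of 4.61 on merged exons, 5.69 per kb of the coding transcript and 6.62 in mean count. Each of these ratios exceeded that of Upf3b to Upf3a on the same scale. Reads that these paralogs share were not searched for.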
